A study of Homo sapiens with 4 samples.

Results

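The AP-1 and immediate early factors are 10 transcription factor genes: FOS, FOSB, FOSL1 and FOSL2 of the Fos family, JUN, JUNB and JUND of the Jun family, the zinc finger genes EGR1 and EGR2, and the stress-induced gene ATF3. They were taken as a named family, and every probe set that the annotation gives to 1 of these genes alone was used. That left 23 of 54613 probe sets and 9 of the 10 genes, out of 19775 genes in all, since no probe set was annotated to EGR2 alone and EGR2 is not analysed here. FOSL2 had 5 probe sets, JUN and JUND 4 each, EGR1 and ATF3 3 each, and FOS, FOSB, FOSL1 and JUNB 1 each.

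The samples were 4 cultures of U87TR-Da cells, made from the glioblastoma line U87MG so that DACH1, a Dachshund-family nuclear protein that represses transcription, answers to doxycycline. DACH1-induced and DACH1-silenced cells were grown in Neurobasal without serum, supplied with the growth factors EGF and bFGF and the supplements B-27 and N-2, or in DMEM with 10% FBS, with 1 Affymetrix array per condition. The treatment note is identical for every culture, 1 µg/mL doxycycline over 72 h, so how the silenced cells were handled is not given. The labels do not say whether U87TR-Da is 1 clone. A signal is the linear MAS5 value of a probe set, and signals under 10.9, the 40th percentile of all values, were set to that floor before log2. No condition was repeated, so the number of arrays limits every value. The p-values below take as error the DACH1-by-medium difference, moderated over all genes, and measure no spread between repeated cultures. A real dependence of the DACH1 difference on the medium would count as error.

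Fos and Jun proteins pair through leucine zippers to form AP-1, which binds TGACTCA and related sites. JUN proteins can also pair with themselves, whereas Fos proteins need a Jun partner. FOS, FOSB, JUNB and EGR1 belong to the immediate early genes, whose RNA rises within minutes of growth factor, serum or stress signals, before any new protein is made, and then decays quickly. FOSL1 and FOSL2 respond later and last longer, and JUND is transcribed fairly constantly in most cells. In mesenchymal glioblastoma, AP-1 with FOSL1 or FOSL2 is known as a driver of the mesenchymal program. DACH1 itself has been reported to bind JUN and to restrain AP-1 in other cell types.

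The promoters of the 5 members called for the medium are shown for the binding motifs that these letters hold. The windows run from 250 bases before to 50 after a RefSeq start site of GRCh38.p14, all on the + strand. EGR1 (chr5:138465229-138465528), FOS (chr14:75278578-75278877), FOSB (chr19:45467746-45468045) and an upstream start of ATF3 (chr1:212565157-212565456) stand for members with lower signals in the arrays labelled serum-free, and FOSL2 (chr2:28392608-28392907) for the member with higher ones. Capitals mark matches to any of 6 motifs: the CArG box bound by serum response factor, the core TGACG of the cAMP response element, the JUN-type site TGACATCA, the AP-1 site TGACTCA, the EGR site GCGNGGGCG, each read on both strands, and the TATA box TATAAA on the gene's strand.
EGR1: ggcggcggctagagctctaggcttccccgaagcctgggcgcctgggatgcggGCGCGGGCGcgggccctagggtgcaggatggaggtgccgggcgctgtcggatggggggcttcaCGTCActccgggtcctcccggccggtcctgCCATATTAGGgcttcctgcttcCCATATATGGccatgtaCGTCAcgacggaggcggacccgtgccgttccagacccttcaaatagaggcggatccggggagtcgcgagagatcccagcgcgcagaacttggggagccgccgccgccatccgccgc
FOS: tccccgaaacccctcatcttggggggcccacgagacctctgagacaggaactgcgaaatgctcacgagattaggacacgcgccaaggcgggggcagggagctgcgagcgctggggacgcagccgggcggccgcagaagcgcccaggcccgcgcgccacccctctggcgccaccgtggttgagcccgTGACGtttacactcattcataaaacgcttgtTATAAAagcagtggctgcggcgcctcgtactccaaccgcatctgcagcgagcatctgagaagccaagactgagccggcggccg
FOSB: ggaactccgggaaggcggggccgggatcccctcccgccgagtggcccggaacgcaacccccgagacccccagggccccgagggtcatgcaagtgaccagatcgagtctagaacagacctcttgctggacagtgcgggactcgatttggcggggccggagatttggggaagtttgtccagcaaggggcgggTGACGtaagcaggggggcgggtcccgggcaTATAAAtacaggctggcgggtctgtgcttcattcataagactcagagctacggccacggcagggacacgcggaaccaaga
ATF3: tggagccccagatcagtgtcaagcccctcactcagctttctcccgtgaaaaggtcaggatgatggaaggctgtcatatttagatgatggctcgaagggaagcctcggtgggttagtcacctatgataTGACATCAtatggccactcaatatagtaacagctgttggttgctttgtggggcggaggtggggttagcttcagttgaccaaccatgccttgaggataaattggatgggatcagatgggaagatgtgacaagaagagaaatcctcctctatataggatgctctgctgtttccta
FOSL2: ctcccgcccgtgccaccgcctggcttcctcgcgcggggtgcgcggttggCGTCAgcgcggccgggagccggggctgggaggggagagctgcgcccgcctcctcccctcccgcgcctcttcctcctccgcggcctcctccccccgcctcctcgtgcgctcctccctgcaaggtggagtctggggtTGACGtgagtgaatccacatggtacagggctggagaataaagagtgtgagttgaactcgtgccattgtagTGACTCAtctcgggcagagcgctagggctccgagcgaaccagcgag

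Counting from -1 at the base before the start site, EGR1 held CArG boxes at -105 and -83, TGACG cores at -135 and -66 and an EGR site at -198. The CArG box occurred in 1.29% of 35116 promoter windows of the same length. FOS and FOSB, from different chromosomes, had the same layout in this window, with a TGACG core at -64 and -60 and a TATA box at -33 and -30. These elements were found in 24.6% and 7.33% of all windows. Of 2 ATF3 windows, the one shown was picked for its JUN-type site, so that match, at -123, is no finding. The other held a TATA box at -230 and none of the other motifs. JUN carried the JUN-type site at -67, and 2.61% of windows held it. FOSL2 had TGACG cores at -201 and -66 and an AP-1 site, at position 5 after the start, a site present in 4.95% of windows. The EGR site was in 9.43% of windows. No motif overlapped another in the windows printed above. In JUND, which is not printed, TGACG cores at -200 and -197 shared bases. EGR2 also held a CArG box, at -71. Of the 10 members, EGR2 included, 9 had a promoter in the table, at 12 start sites, and FOSL1 had none there. A match describes letters only, and bases outside these windows were not searched, so a motif absent here may lie further off. Which start site a probe set reads was not analysed here.

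DACH1 checked the labels: its brightest probe set read 875.1 in induced and 32.5 in silenced cells labelled serum-free, and 4431 and 126.0 in those labelled serum. The glioma and neural markers VIM, CD44, TNC and EGFR were at 481.1 or more on every array, while GFAP, S100B and SOX2 lay under the floor on all 4. Of the same list, NES read only 19.6 to 35.8 and CHI3L1 21.4 to 103.1. OLIG2 read 12.3 and 12.2 in induced and silenced cells labelled serum-free, against 79.9 and 58.4 labelled serum. The 3 immune markers summed to between 5.8 and 22.3 per array. Median signals ran from 15.7 to 19.3. The media are named as labelled, and 2 gene groups that often track serum were read beside them. All 10 mitotic genes rose in the arrays labelled serum-free (median log2 difference 1.73), and of 8 sterol-responsive genes, which cells usually raise when lipoprotein is short, 0 rose and 0 fell by limma, with a median of -0.45. Of all genes in that fit, 15.4% rose and 12.7% fell. An unadjusted p under 0.05 was reached by 2 of the 8 sterol-responsive genes and by 45.7% of all genes. Under other settings, 1 or 2 of the sterol-responsive genes fell, or 1 rose. Whether the medium labels hold, and what part growth rate has in the values that follow, was not tested.

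The first comparison asks what the members did between the media. Growth-responsive EGR1, FOS and FOSB and the stress factor ATF3 were far lower in the arrays labelled serum-free, FOSL2 was 1.92-fold higher in the fit, and FOSL1, JUN, JUNB and JUND were at most 1.51-fold lower by their brightest probe sets. The test was limma on the 4 arrays with medium and DACH1 state as terms, over 12103 genes, each read by its brightest probe set, with Benjamini-Hochberg adjustment. Of the 9 members, 4 fell and 1 rose in the arrays labelled serum-free, where 12.7% of all genes fell and 15.4% rose. The median log2 difference was -0.47 over the members and 0.02 over all genes. FOS and FOSB entered the fit only through the arrays labelled serum. With every array required to reach the median signal of 17.2, they are not tested, and 2 of 7 members fell, EGR1 and ATF3. With no filter on low signals, limma called 0 members and 0 genes for the medium, while 5 members and 4531 genes had an unadjusted p under 0.05.

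**Figure D1:**
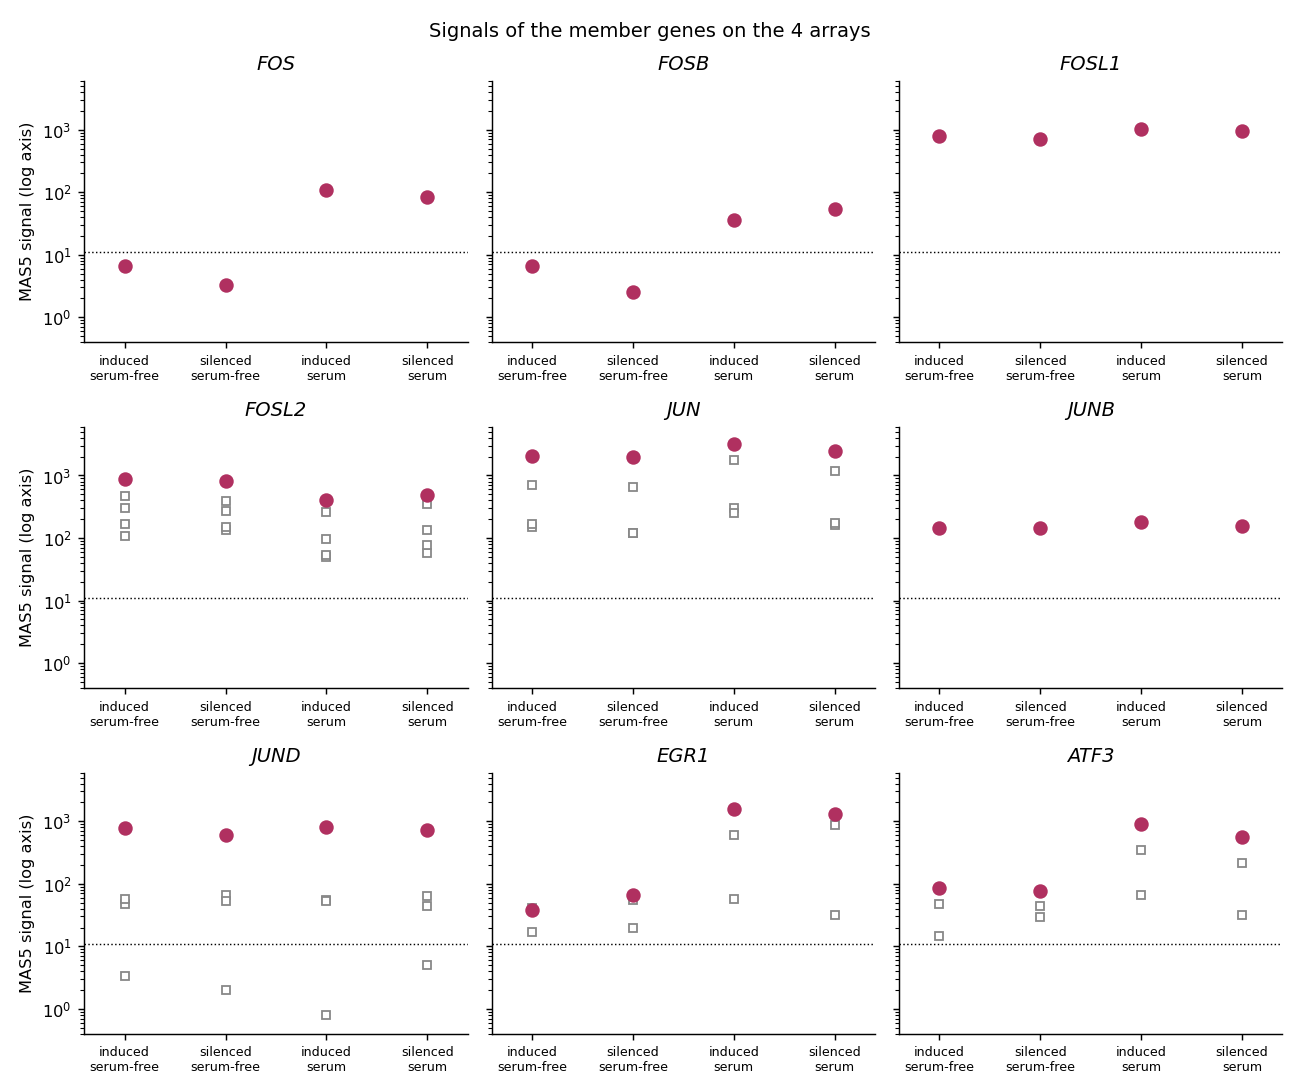
MAS5 signal (log axis) of every probe set of the 9 measured members on the 4 arrays, in panels by gene; filled circles are the brightest probe set, open squares the others, and the dotted line is the floor of 10.9. FOS, FOSB, EGR1 and ATF3 are lower on the arrays labelled serum-free by their brightest probe set, FOS and FOSB below the floor, and FOSL2 is higher.

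EGR1, the zinc finger activator that ERK signalling switches on through CArG boxes like those printed above, was measured above the floor on every array. Its brightest probe set read 38.0 in induced and 66.4 in silenced cells labelled serum-free, against 1571 and 1284 in those labelled serum. The signal was 41.3-fold lower in induced and 19.3-fold lower in silenced cells. It fell by 4.82 on the log2 scale (SE 0.33, limma adjusted p 0.0167). The second probe set, 201694_s_at, read 41.4 and 54.6 labelled serum-free and 605.7 and 861.7 labelled serum, and fell by 3.93 (SE 0.20). The third, 201693_s_at, was dim, at 17.2 and 19.6 against 57.5 and 32.2, and fell by 1.23 (SE 0.31). The size thus depended on the probe set, and the direction did not.

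FOS, the prototype Fos gene, read 6.5 in induced and 3.3 in silenced cells labelled serum-free, both under the floor, and 109.5 and 84.6 in those labelled serum. Its signal was at least 10.0-fold lower in induced and at least 7.76-fold lower in silenced cells. FOSB, its closest paralogue, read 6.5 and 2.5 labelled serum-free, also under the floor, and 36.1 and 53.9 labelled serum. That was at least 3.31-fold lower in induced and at least 4.94-fold lower in silenced cells. For both genes the arrays labelled serum-free gave no measured level, only a bound, and even labelled serum the signals were modest. Limma called both lower, but the floor alone made their DACH1 difference labelled serum-free 0. The error of these 2 calls is thus set in part by the floor.

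ATF3, a repressor and activator of the ATF family that many stresses induce, read 86.7 and 75.9 in induced and silenced cells labelled serum-free, against 911.0 and 558.3 labelled serum. It was 10.5-fold lower in induced and 7.36-fold lower in silenced cells, and fell by 3.14 on the log2 scale (SE 0.22, limma adjusted p 0.0167). Its probe set 1554980_a_at gave 48.4 and 44.9 against 351.3 and 216.8, and fell by 2.57 (SE 0.24). The third probe set, 1554420_at, did not pass: it read 14.9 and 29.1 labelled serum-free and 65.8 and 31.5 labelled serum, a log2 difference of -1.13 (SE 0.51, limma adjusted p 0.16). The brighter pair of ATF3 probe sets were thus lower in both DACH1 states, and the dim one was 4.42-fold lower in induced and 1.08-fold lower in silenced cells.

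FOSL2 encodes FRA2, a late Fos protein without the strong activation domain of FOS. Its brightest probe set read 883.2 in induced and 812.7 in silenced cells labelled serum-free, above the 404.0 and 480.7 of those labelled serum. The signal was 2.19-fold higher in induced and 1.69-fold higher in silenced cells, a rise of 0.94 on the log2 scale (SE 0.20, limma adjusted p 0.0412). All 5 FOSL2 probe sets were higher on both arrays labelled serum-free than on either labelled serum. How many of all probe sets separate in this way was not counted. Fitted probe set by probe set, 4 of the 5 rose, by 0.94 to 1.33, and the fifth, 228188_at, had a log2 difference of 0.51 (SE 0.26, limma adjusted p 0.203). FOSL2 was the 1 member that rose, and its limma adjusted p of 0.0412 became 0.0589 without a floor.

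FOSL1 encodes FRA1, the other late Fos protein, which is stabilised by ERK signalling. It read 805.0 and 718.2 in induced and silenced cells labelled serum-free, against 1012 and 963.8 labelled serum. The log2 difference of -0.38 (SE 0.18) missed the threshold in limma (adjusted p 0.182). It was 1.26-fold lower in induced and 1.34-fold lower in silenced cells, on arrays where FOS and FOSB were under the floor.

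JUN, the main Jun partner and itself an AP-1 target through the JUN-type site, was bright on every array. Its brightest probe set read 2082 and 1986 in induced and silenced cells labelled serum-free, and 3149 and 2506 in those labelled serum, a log2 difference of -0.47 (SE 0.19, limma adjusted p 0.138). All 4 JUN probe sets were lower on both arrays labelled serum-free than on either labelled serum. The share of all probe sets that do so was not counted, and the 4 are not independent. Of the 4, 1 passed the test on probe sets: 201466_s_at read 708.1 and 653.0 against 1794 and 1199, and fell by 1.11 (SE 0.23, limma adjusted p 0.0305). The call for JUN therefore rests on which probe set is read.

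JUNB, a Jun protein that restrains JUN in many settings, read 142.0 and 142.7 labelled serum-free and 177.9 and 157.2 labelled serum (log2 difference -0.23, SE 0.18, limma adjusted p 0.383). JUND read 783.6 in induced and 612.8 in silenced cells labelled serum-free, and 798.1 and 728.7 in those labelled serum (-0.14, SE 0.19, adjusted p 0.605 in limma). The arrays of the media overlapped for JUND and, for JUNB, did not, though by a small margin. The share of all genes without overlap was not counted. Among the other JUND probe sets, 229117_s_at was under the floor on every array, and the other two read between 43.6 and 65.8. A miss of the threshold does not show that JUNB and JUND were unchanged.

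**Figure D2:**
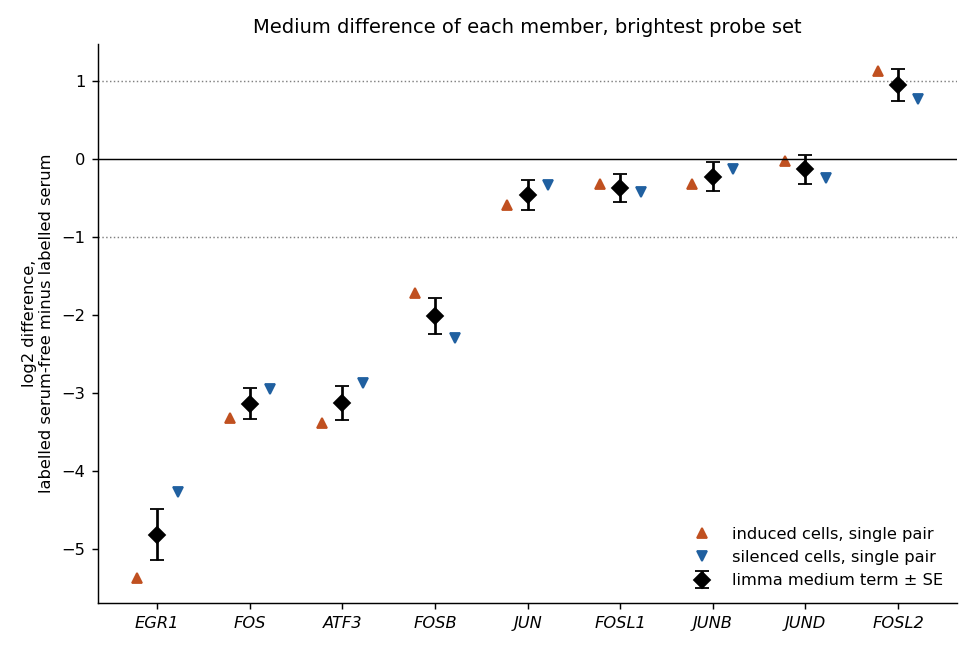
Log2 difference between the arrays labelled serum-free and those labelled serum for each member, from the lowest to the highest; diamonds with bars are the limma medium term with its SE, upward triangles the pair of induced cells and downward triangles the pair of silenced cells, and dotted lines mark 2-fold. EGR1, FOS, ATF3 and FOSB lie below -1.7 by every point, those of FOS and FOSB being set by the floor, and FOSL2 lies above 0.

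Counted by pairs with no test, 4 of 9 members were at least 2-fold lower labelled serum-free in induced cells, where 10.1% of genes were, and the same 4 in silenced cells, where 12.2% were. FOSL2 was the 1 member at least 2-fold higher in induced cells (14.0% of genes), and 0 were in silenced cells (15.3%). Read probe set by probe set, limma over 23629 probe sets called 8 of the 22 tested member probe sets lower and 4 higher, against 12.4% and 16.3% of all. The 8 belonged to FOS, FOSB, EGR1, ATF3 and JUN, and the 4 to FOSL2. In the counts by pairs and by probe sets, FOS and FOSB entered only through the arrays labelled serum. Probe sets of 1 gene read the same RNA and are not independent. In RNA of a whole culture, fewer expressing cells and less RNA per cell cannot be told apart.

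The other comparison asks what DACH1 induction did to the members. No member passed the test: limma called 0 of 9 members and 0% of all genes for the DACH1 term, while 0 members and 585 genes had an unadjusted p under 0.05. Probe set by probe set the count was 0 of 22, and 0% of all, while 1 member probe set, of JUN, had an unadjusted p under 0.05. DACH1 itself, 26.9-fold higher in induced cells labelled serum-free and 35.2-fold higher in those labelled serum, had a limma adjusted p of 0.234 in the same fit, so a difference of that size was not called either. In single pairs, 0 of 9 members were at least 2-fold higher and 0 lower with DACH1 induced in the arrays labelled serum, where 2.91% and 4.77% of genes were. In those labelled serum-free, where FOS and FOSB lay under the floor, it was 0 of 7 in either direction, with 1.02% and 2.72% of genes.

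The values for JUN leaned 1 way. All 4 JUN probe sets were higher in induced than in silenced cells under both medium labels. The size was 1.05-fold to 1.41-fold labelled serum-free and 1.26-fold to 1.86-fold labelled serum. How many of all probe sets do so was not counted, and the 4 read the same RNA and are not independent. The probe set 201466_s_at, for instance, read 708.1 in induced and 653.0 in silenced cells labelled serum-free, and 1794 and 1199 in those labelled serum. The log2 difference of the brightest was 0.20 (SE 0.19, limma adjusted p 0.939), and no JUN probe set passed. The JUN probe set with an unadjusted p under 0.05 was 213281_at, which read 169.5 and 120.3 labelled serum-free and 253.1 and 171.2 labelled serum (limma adjusted p 0.937).

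By all 3 probe sets, induced cells labelled serum had more ATF3 signal, 1.63-fold by the brightest (911.0 and 558.3), 1.62-fold and 2.09-fold. In those labelled serum-free the brighter pair of probe sets were 1.14-fold and 1.08-fold higher (86.7 and 75.9, 48.4 and 44.9), and 1554420_at was 1.95-fold lower (14.9 and 29.1). The fitted log2 difference was 0.45 (SE 0.22, limma adjusted p 0.931). FOSL2 ran the other way in the arrays labelled serum, where all 5 probe sets were lower in induced cells, by 1.17-fold to 1.43-fold. In those labelled serum-free, 4 of the 5 were higher, by at most 1.22-fold. The fitted log2 difference of FOSL2 was -0.07 (SE 0.20, limma adjusted p 0.978). Probe sets of ATF3, like those of FOSL2, read the same RNA and are not independent. How many of all probe sets share these directions was not counted.

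EGR1 gave no common direction for DACH1. In the arrays labelled serum its brightest probe set was 1.22-fold higher with DACH1 (1571 and 1284), 201693_s_at 1.79-fold higher and 201694_s_at 1.42-fold lower (605.7 and 861.7). In those labelled serum-free all 3 were lower, by 1.75-fold, 1.14-fold and 1.32-fold. FOS read 109.5 in induced and 84.6 in silenced cells labelled serum, a 1.29-fold difference, and FOSB 36.1 and 53.9, 1.49-fold lower. FOSL1, JUNB and JUND were within 1.28-fold in both media by their brightest probe sets.

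**Figure D3:**
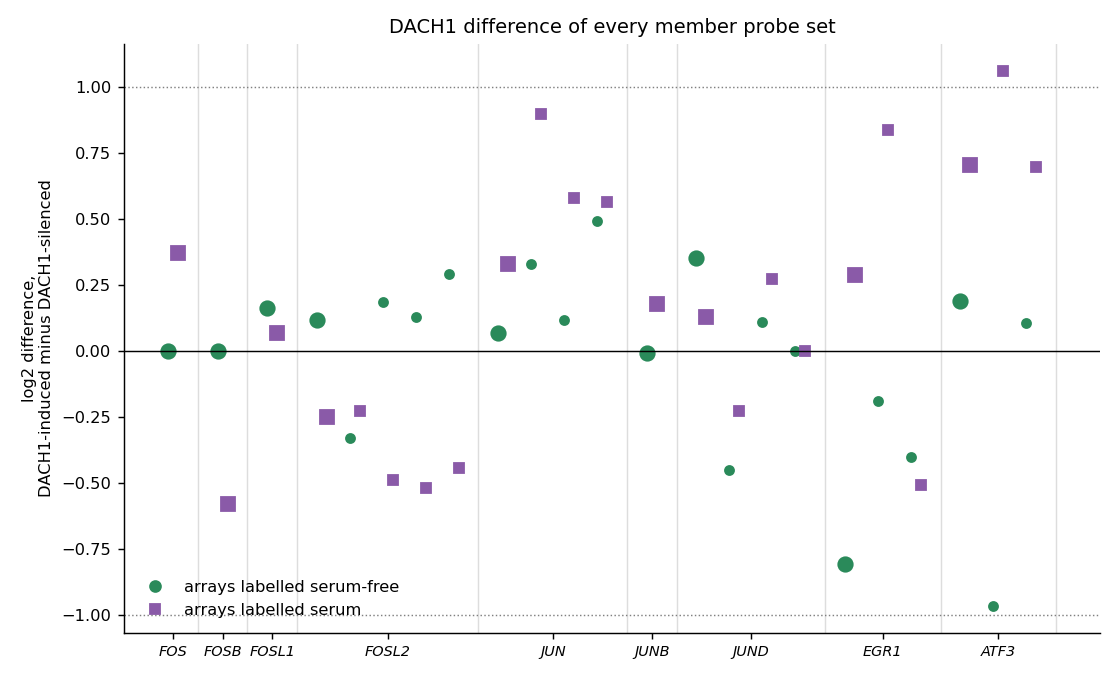
Log2 difference between DACH1-induced and DACH1-silenced cells for each of the 23 member probe sets, grouped by gene; circles are the arrays labelled serum-free and squares those labelled serum, larger marks are the brightest probe set of a gene, and dotted lines mark 2-fold. All JUN marks lie above 0, and 1 mark, an ATF3 probe set in the arrays labelled serum, lies past 2-fold.

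How far the DACH1 difference depended on the medium has no error here, since the fit uses that very quantity as its error. The difference of differences, labelled serum-free minus labelled serum, was -1.10 for EGR1 on the log2 scale, -0.51 for ATF3, -0.26 for JUN and 0.37 for FOSL2 by the brightest probe sets. All 4 JUN probe sets gave a negative value, from -0.57 to -0.07, and so did all 3 for ATF3. For EGR1, 201694_s_at gave 0.11, so its other 2 probe sets alone carry the value near -1.

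Related genes were counted on lists chosen beside the members, with earlier results of these data known. A list count set beside the share of all genes, for the medium or for DACH1, is therefore no test of the list. Of 21 other immediate early genes in the fit, 10 fell and 1 rose in the arrays labelled serum-free by limma (median log2 difference -0.81), against the 12.7% and 15.4% of all genes. Without a floor, 5 fell and 0 rose. Like FOS and FOSB, 3 of the 10, EGR3, NR4A2 and NR4A3, entered the fit only through the arrays labelled serum. NFKBIZ, an NF-kB coregulator, fell 13.1-fold (294.6 and 311.5 in induced and silenced cells labelled serum-free, 2859 and 5487 labelled serum). The nuclear receptor NR4A3 fell to signals of 16.8 and 1.0, the lower under the floor, against 114.9 and 113.7, and the small Maf gene MAFF fell 7.60-fold. EGR3 fell 3.43-fold, the ERK and JNK phosphatase gene DUSP1 2.22-fold and the RNA-decay factor gene ZFP36 1.83-fold. GADD45B rose 2.19-fold, while MYC read 525.4 and 563.5 against 471.4 and 632.2 and did not pass.

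Among 15 other AP-1 and CREB bZIP genes, 3 fell and 1 rose (median -0.36). The gene that rose was JDP2, a Jun dimerisation partner that represses AP-1: it read 245.6 and 236.4 labelled serum-free against 70.7 and 79.1 labelled serum, 3.22-fold higher (limma adjusted p 0.0196). DDIT3, the CHOP gene, fell 4.52-fold, CREB5 4.44-fold and ATF4 2.04-fold. Of 19 upstream kinases, SRF cofactors and EGR corepressors, 5 fell and 1 rose (median -0.09), and without a floor 2 fell. SRF, whose product binds the CArG box, fell 2.08-fold (52.7 and 45.3 against 88.1 and 117.1), its ternary partner ELK3 2.29-fold and the EGR corepressor NAB1 2.97-fold. The ERK1 gene MAPK3 rose 2.73-fold, and the JNK-pathway kinase gene MAP3K5 fell. MAP3K5 read 18.2 in induced and 10.9 in silenced cells labelled serum-free, against 80.6 and 168.7 labelled serum, and was 4.43-fold lower in induced and 15.5-fold lower in silenced cells.

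Of 19 genes known as AP-1 targets in other systems, 8 fell and 2 rose (median -1.29), with IL1B, CXCL8 and MMP1, the collagenase with the textbook AP-1 promoter, lowest. MMP1 read 13.8 and 19.3 in induced and silenced cells labelled serum-free, against 883.3 and 1231 labelled serum. The cyclin gene CCND1 fell 2.90-fold and TIMP1 3.22-fold, while SPP1 rose 2.51-fold and EZR 2.62-fold. Several of these are also NF-kB targets, and the part of AP-1 in any of them was not tested. For the DACH1 term limma called 0 genes of these 4 lists, whose median log2 differences lay between -0.23 and 0.07. The number at an unadjusted p under 0.05 was 1 of the 21 immediate early genes, 0 of the 15 bZIP genes, 0 of the 19 upstream genes and 4 of the 19 targets, where 4.83% of all genes had one.

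In single pairs, which have no test, 7 of 20 AP-1 targets were at least 2-fold lower and 1 higher with DACH1 induced in the arrays labelled serum, where 4.77% and 2.91% of genes were. The list was chosen with earlier results of these data known, so its counts do not show that AP-1 targets as a class differed. The cytokine gene IL6 read 124.5 in induced and 5184 in silenced cells labelled serum, and 19.6 and 31.6 in those labelled serum-free. PTGS2, the inducible cyclooxygenase gene, read 94.3 and 3155 labelled serum, and 57.8 and 59.8 labelled serum-free. FGF2 read 209.3 and 1476 labelled serum, against the heme oxygenase gene HMOX1 on the higher side with 1498 and 182.4. These gaps rest on the silenced array labelled serum, which stood apart from the other three for IL6, PTGS2, FGF2 and HMOX1. Labelled serum-free, 1 target of 19 was past 2-fold lower with DACH1 and 0 were past it on the higher side, where 2.72% and 1.02% of genes were. That target was CXCL8, which was lower with DACH1 under both labels. It read 46.6 in induced and 95.2 in silenced cells labelled serum-free (2.04-fold), and 3547 and 7257 labelled serum (2.05-fold). Of the other immediate early genes, the matricellular gene CCN1 read 316.2 and 911.2 labelled serum and PLK2 346.6 and 768.0, while 3 of 22 were past 2-fold lower and 1 higher. The members' own DACH1 differences in the same arrays stayed under 2-fold by their brightest probe sets.

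**Figure D4:**
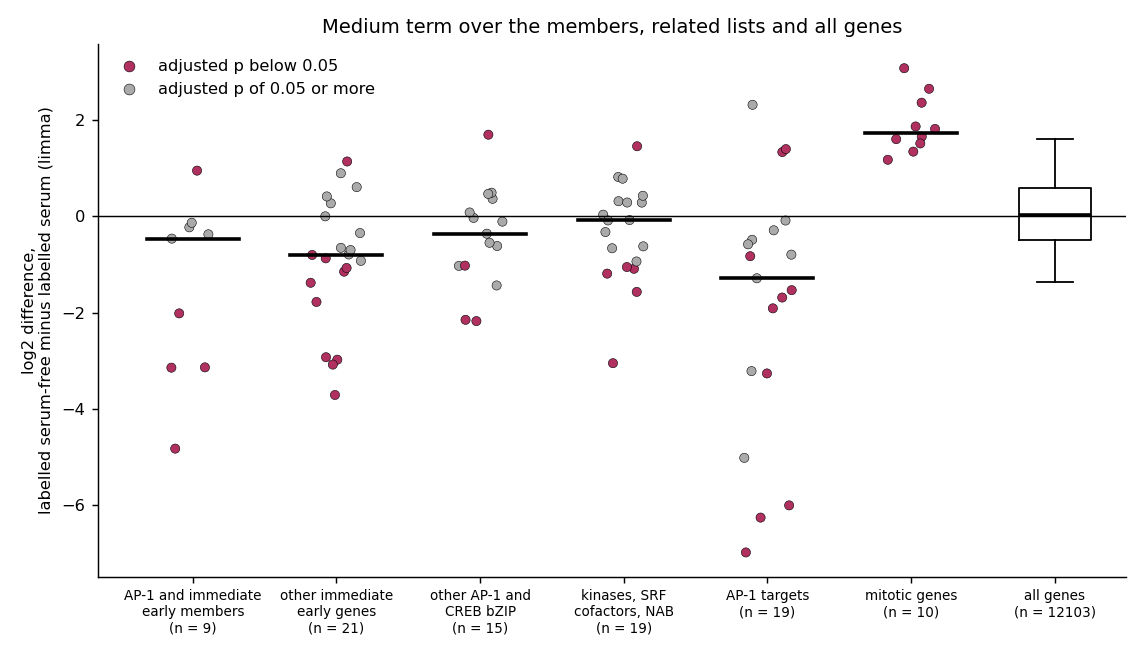
Limma log2 difference between the arrays labelled serum-free and those labelled serum for the members, 4 related lists and the mitotic genes, 1 point per gene with red for an adjusted p below 0.05 and a bar at the median; the box shows all 12103 genes, with whiskers at the 5th and 95th percentiles. The fitted values of the members run from -4.82 for EGR1 to 0.94 for FOSL2, those of FOS and FOSB being set by the floor. All 10 mitotic genes lie above 0.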

How the data were processed

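Per the labels' protocols, 6 µg of RNA from each of 4 cultures went to an Affymetrix array. Values were deposited as linear MAS5 signal intensities per probe set (the algorithm is named in the submitters' processing notes), with version and target not given in the sources used here. Means trimmed by 2% at each end were 99.6 on all 4 arrays, as scaling to a common target gives. MAS5 subtracts background, so low signals are noisy, and detection calls were not used. At most 569 probe sets had equal signals on 2 arrays.

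Of 54613 probe sets, 41091 had 1 gene in GEO's platform annotation, 1801 several and 11721 were not listed. Symbols were updated through Entrez identifiers for 99.9% of the former group. Values were floored at 10.9 and put on the log2 scale, and of a gene's probe sets the brightest on average was read. A gene entered the limma fit (lmFit and eBayes, medium and DACH1 as terms, no interaction) if 2 of 4 arrays reached the median signal of 17.2, or a pair if 1 array did. The fit has 1 residual degree of freedom, which is the DACH1-by-medium difference, and was tested on simulated data. Single pairs have no test and were counted at 2-fold. "At least" marks a fold against the floor.

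The members and the 7 gene lists were chosen with earlier results of these data known. Named were all members, up to 4 genes per list and term by mean difference, the 3 genes nearest to each of 5 members, and some list genes chosen after their values were seen: EGR3, DUSP1, ZFP36, GADD45B, MYC, ATF4, SRF, CCND1, TIMP1, SPP1 and EZR. Promoters came from RefSeq, GRCh38.p14. Alternatives changed the scaling, floor, filter, probe set choice, variance prior or arrays used. The software was limma 3.58.1 in R 4.3.3, with pandas 2.3.3, numpy 2.4.6 and matplotlib 3.10.9 in Python 3.11.15.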

Additional observations from a re-analysis of the deposited data

Results flagged for a closer look

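The DACH1 difference had opposite signs under the medium labels for 3 members, read by their brightest probe sets and with 1 array per condition, and the difference between media was not tested. DACH1 itself had lower signals labelled serum-free, and its part in this was not tested. EGR1 had a log2 difference of -0.805 between induced and silenced cells labelled serum-free and 0.291 in those labelled serum. FOSL2 gave 0.12 labelled serum-free and -0.251 labelled serum, where its other probe sets kept these signs except 205409_at labelled serum-free. JUNB gave -0.007 and 0.178, both close to 0.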

How the results depend on the processing

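With quantile normalization, a pseudocount, the mean of all probe sets or a trend in the variance prior, limma called the same members for the medium: ATF3, EGR1, FOS and FOSB lower and FOSL2 higher. Without a floor, 4 members stayed lower but 0 were higher, with 1234 genes higher and 929 lower overall. Without the filter on low signals, limma called 0 members and 0 genes in either direction, although 5 members and 4531 genes had an unadjusted p under 0.05. The filter sets how many genes are tested (19775 without it). The SEs of the medium term also changed without it, from 0.18 to 0.04 for FOSL1 and from 0.33 to 0.46 for EGR1. What made the calls disappear was not tested. With every array above the median, or with a floor of 50 and a filter of 100, 2 members were lower (ATF3 and EGR1), since FOS and FOSB were then not tested. The same 2 were the members past 2-fold lower in silenced cells under both settings and in induced cells under the first. Without probe sets ending in _x_at or _s_at, EGR1 had none, and ATF3, FOS and FOSB were lower. Probe set by probe set, FOSL2 was also past 2-fold higher in silenced cells (1 member), and ATF3 past 2-fold higher with DACH1 labelled serum (1 member). The DACH1 term called 1 gene, DACH1 itself, with every array above the median (limma adjusted p 0.0331) and with the trend (0.0104). FOSB for that term turned to 0.40 without a floor, where both signals labelled serum-free are under 10.9. Leaving out each array in turn leaves 1 pair per term and no test, so it only returns the pair values given above. All 72 such values kept within 1.5-fold of the fitted one, but the DACH1 value of EGR1, FOSL2 and JUNB changed sign. Over the gene lists, 43 counts moved by over 1.5-fold and 97 did not, and the 43 include all lists with any call when the filter was dropped. No paired analysis was possible because each condition had 1 array and so no replicates to block on, though the medium term is itself the mean of the differences within the 2 DACH1 states.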

Other observations

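Of 7 heat shock and stress genes in the limma fit, 1 rose and 0 fell in the arrays labelled serum-free, with a median log2 difference of 0.32, where 15.4% of all genes rose and 12.7% fell. The small heat shock gene HSPB1 rose 1.77-fold, with 3699 in induced and 4002 in silenced cells labelled serum-free and 2129 and 2210 in those labelled serum. That limma call was lost with quantile normalization, without a floor, without the filter and without probe sets ending in _x_at or _s_at. HSPA5, the ER chaperone BiP gene, read 6308 and 6837 against 3440 and 4917 and did not pass (limma adjusted p 0.0789).

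The genes in the fit whose profiles lay nearest to some members were found by Euclidean distance between log2 signals centred on each gene's mean, over the 4 arrays. Nearest to FOS were PELI1, KCNN3 and C6orf52, at distances of 0.13 to 0.18, and PELI1 read 11.0 and 11.9 labelled serum-free against 124.4 and 92.9 labelled serum. Nearest to EGR1 were TFPI2, BCL2A1 and LINC00944, farther off at 0.57 to 0.77. TFPI2 read 144.7 and 194.8 against 6839 and 6406. Nearest to ATF3 were ADGRL2, CNIH3 and LINC03125 (0.14 to 0.25), to JUN UBALD2, VPS37B and CRBN (0.03 to 0.05), and to FOSL1 HAUS2, PRDM10 and TRAPPC4 (0.02 to 0.03). FOS and KCNN3 were under the floor of 10.9 on both arrays labelled serum-free, as were BCL2A1 and LINC03125, and C6orf52 and LINC00944 on 1 of them, so nearness there is set in part by the floor. With 4 arrays, many genes lie this near, most of all to members that hardly differ between arrays.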
